A study of Mus musculus with 6 samples.

Results

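The transcripts described here are those of 38 genes of glycolysis, glucose and lactate transport and pyruvate use, taken by gene symbol from a table of 27179 Entrez Gene entries. They cover glucose entry, each step from glucose to lactate, the entry of pyruvate into mitochondria and its oxidation there, and 2 genes of the hypoxia response, Hif1a and Bnip3. All 38 were in the table, and 36 had a mean of at least 0.5 RPKM (reads per kilobase of gene, scaled to the reads of the library) over the 6 libraries, the level required for testing. RNA was measured in nephron progenitors sorted at E16.5 from mouse kidneys by the green fluorescence of a reporter under control of the Six2 locus. Mutant progenitors were Six2TGC;miR-17~92fl/fl and control progenitors were Six2TGC, so Six2TGC, a transgene that expresses Cre recombinase together with the reporter wherever Six2 is active, was present in both. Only the mutants had the miR-17~92 cluster flanked by the loxP sites on which Cre acts. There were 3 libraries of each genotype, made from cells pooled over 4 embryos apiece. The labels give no strain background and name no floxed copies in controls, so the deletion and any background carried with the floxed copies cannot be told apart.

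Glycolysis splits glucose into pyruvate in the cytosol. Pyruvate is then either reduced to lactate, which leaves the cell through monocarboxylate transporters, or carried into mitochondria, where the pyruvate dehydrogenase complex turns it into acetyl-CoA. Pyruvate dehydrogenase kinases switch that complex off, and HIF-1, a factor stabilized at low oxygen, raises the transcription of many genes of the pathway. Nephron progenitors of the embryonic kidney are known for high glycolytic activity that declines as they near the end of nephron formation. The miR-17~92 cluster encodes microRNAs that pair through their seed, bases 2 to 8, with sites in target messenger RNAs and lower their stability or translation.

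The main products of the deleted cluster are shown first because they define the sites searched for in the 38 genes; the sequences are from RefSeq (GRCm38.p6, plus strand of chromosome 14, between 115043684 and 115044496), with the seed in capitals. The first pair shares a seed, the miR-19 pair shares another, and miR-18a and miR-92a have seeds of their own.
mmu-miR-17-5p: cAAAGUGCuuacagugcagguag
mmu-miR-20a-5p: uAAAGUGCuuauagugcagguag
mmu-miR-18a-5p: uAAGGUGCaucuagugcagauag
mmu-miR-19a-3p: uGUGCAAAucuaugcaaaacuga
mmu-miR-19b-3p: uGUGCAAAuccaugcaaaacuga
mmu-miR-92a-3p: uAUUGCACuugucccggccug

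Library depth, worked out from the RPKM values, was between 27602025 and 30264067 reads in mutants and between 28117790 and 36134381 reads in controls. Mitochondrial ribosomal RNA took 32.2% to 38.2% of the reads in mutants and 27.0% to 30.4% in controls, and its part in the results was not tested except by the alternative depth given below. Mir17, in the deleted cluster, had 2 reads over the mutant libraries and 73 over the control libraries, in the direction the labels give. Mir17hg, the host transcript of the cluster, was listed at 259, 183 and 194 RPKM in mutants and 45.4, 33.6 and 52.9 in controls, which is the opposite direction (log2 fold change 2.26, adjusted p 4.93e-05 by limma). The Mir17hg entry spans 115044390 to 115046728 of chromosome 14. It covers Mir92-1 but begins after Mir17, Mir18, Mir19a and Mir20a, the last of which ends at 115044263. The labels do not say which part of Mir17hg the deletion removes. The 12 nephron progenitor markers summed to 683 to 798 RPKM in mutants and 871 to 940 in controls. Six2, their defining factor, had 63.5, 57 and 77 RPKM in mutants and 83.5, 69.9 and 104 in controls. Of the 12, 4 had a positive log2 fold change, and the median was -0.30. By limma, Tmem100 was higher in mutants (log2 fold change 0.95, adjusted p 0.0441). Meox1 (-0.95, limma adjusted p 0.00271) and Capn6 (-0.54, 0.0449) were lower. Summed levels of 8 tubule markers were 6.87 to 19.5 RPKM in mutants and 3.85 to 4.70 in controls. Slc12a3 was at 0 in 1 mutant and 2 control libraries. All 4 tubule markers tested had a positive log2 fold change. Slc12a1 had 3.19, 1.96 and 8.28 RPKM in mutants and 0.114, 0.233 and 0.63 in controls (2.43, limma adjusted p 0.00561). For 10 macrophage and leukocyte markers the sums were 13.2 to 15.3 in mutants and 5.35 to 8.48 in controls. Tyrobp and C1qb were at 0 in 1 control library each. All 5 of these markers that could be tested had a positive log2 fold change. By limma, Ctss (1.55, adjusted p 0.0046), Fcer1g (1.24, 0.00264) and Tyrobp (1.23, 0.0491) were higher in mutants. The sums were 86.2 to 138 RPKM in mutants and 51.6 to 109 in controls for 9 interstitial markers. All 9 had a positive log2 fold change, with a median of 0.59, and none had a limma adjusted p under 0.05. For 8 markers of committed progenitors the sums were 105 to 132 in mutants and 95.8 to 115 in controls. All 7 committed progenitor markers that could be tested had a positive log2 fold change, with a median of 0.37. Cdh6 (0.87, limma adjusted p 0.0146) and Emx2 (1.0, 0.0342) were the highest of them in fold change. Markers of endothelium summed to 4.06 to 4.84 RPKM in mutants and 2.57 to 4.84 in controls, those of the ureteric bud to 21.8 to 32.3 in mutants and 25.1 to 29.4 in controls, and those of erythroid cells to 8.35 to 12.7 in mutants and 6.92 to 13.3 in controls. Most of the ureteric bud sum was Hoxb7, at 19.2 to 24.9 RPKM in mutants and 20.8 to 26.3 in controls (log2 fold change -0.16). Of the 4 ureteric bud markers tested, 3 had a positive log2 fold change, and the median was 0.66. The part of these marker differences in the values below was not tested. Fewer cells of a type and less RNA per cell cannot be told apart in bulk samples, and as each library is a pool, p-values measure the spread between pools.

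None of the 36 tested genes passed the test in either direction, by limma on log2(RPKM + 0.5) with Benjamini-Hochberg adjustment over all 13463 tested genes at 0.05. Over all tested genes 422 passed, which is 3.13%, with 178 higher (1.32%) and 244 lower (1.81%) in mutants. At an unadjusted p under 0.05 there were 8 of the 36 genes, or 22.2%, beside 2641 of all tested genes, or 19.6%. Slc16a1, Pdhb and Pfkp were the 3 with higher values in mutants, and Gapdh, Eno3, Pdk4, Pdk3 and Hk1 the 5 with lower values. The range of mutant libraries lay clear of the range of control libraries for 8 of the 36 genes (22.2%), against 25.1% of all tested genes. Mutants were the higher group in 4 of them (7.06% of all genes) and the lower group in the other 4 (18.0% of all genes). The median log2 fold change of the 36 was -0.15, and that of all tested genes was -0.125. Of the 36, 8 had a positive log2 fold change and 17 exceeded the all-gene median.

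The test could see large changes better than small ones. The standard error of the log2 fold change lay between 0.13 and 0.28 over the 36 genes, and the median half-width of the 95% interval was 0.40. The interval included 0 for 28 genes. On simulated tables of this comparison with 13342 genes, the fit found 9.50% of 1.5-fold changes, 55.0% of 2-fold changes and 92.4% of 4-fold changes, and 4.87% of its calls were false. A 1.5-fold change was therefore mostly not detectable with 3 libraries a group in this simulation. Its noise was drawn separately for each gene from the variance model of the fit, without the spread that genes share within a library. The shares of changes found and of false calls may differ in the data themselves.

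**Figure D1:**
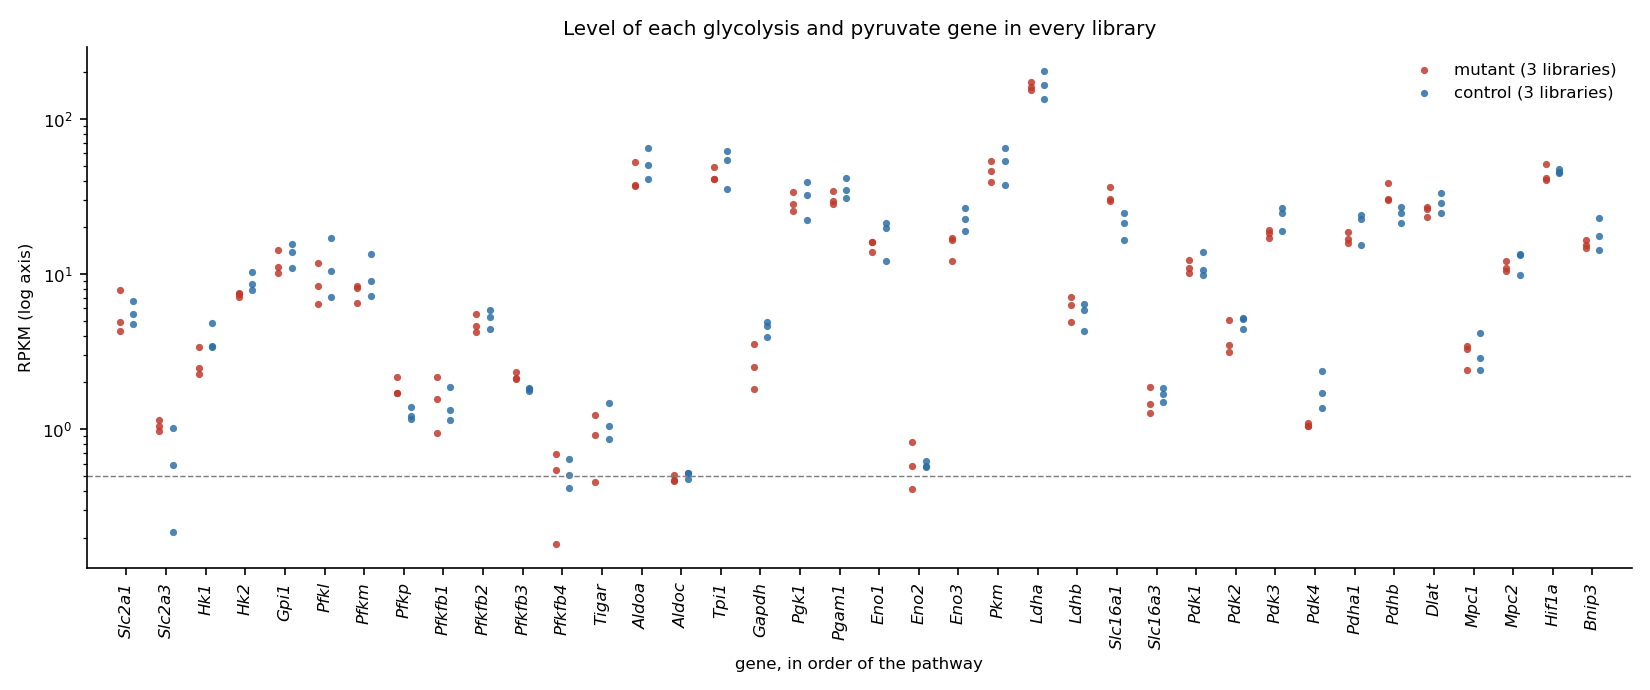
RPKM on a log axis of each of the 38 genes, in the order of the pathway, with 1 point per library (3 mutant libraries left, 3 control libraries right of each gene). The dashed line marks the mean of 0.5 RPKM needed for testing. Ldha stands highest, and the points of the 2 genotypes overlap for all but 8 of the 36 tested genes.

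Levels per length spanned from the lactate dehydrogenase gene Ldha, at a mean of 165 RPKM over the 6 libraries, to Aldoc, at 0.493 RPKM. At a mean of at least 10 RPKM there were 19 genes, 14 lay between 1 and 10 RPKM, and 5 lay below 1 RPKM. The order of the highest was Ldha, Pkm, Aldoa, Tpi1, Hif1a, Pgam1, Pgk1, Pdhb, Dlat and Slc16a1. Ldha stood clear of every other gene in each library, whereas Pkm, Aldoa, Tpi1 and Hif1a, at means of 49.2, 47.3, 47.1 and 45.2 RPKM, differed from each other by less than their spread over libraries. The aldolase gene Aldoc, at 0.479 ± 0.0220 RPKM in mutants and 0.507 ± 0.0248 in controls (SD, n = 3 each), and Pfkfb4, at 0.471 ± 0.261 RPKM in mutants and 0.525 ± 0.114 in controls, fell just under the level for testing. Eno2, with a mean of 0.597 RPKM, was the gene just above it.

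Glucose enters through facilitative transporters. Slc2a1, which encodes GLUT1, had 4.30, 4.88 and 7.84 RPKM in mutants and 4.76, 5.50 and 6.68 in controls. The groups overlapped, and the log2 fold change was -0.02 with a 95% interval of -0.48 to 0.44. Slc2a3, which encodes GLUT3, was lower in level, at 0.977, 1.04 and 1.14 RPKM in mutants and 0.591, 1.02 and 0.216 in controls, with 24 reads in the lowest control library. Its log2 fold change was 0.55 with an interval of -0.03 to 1.13, the widest uncertainty among the transporters.

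Hexokinases trap glucose in the cell by phosphorylation. Hk2 was the main form, at 7.47, 7.59 and 7.16 RPKM in mutants and 8.65, 10.3 and 7.93 in controls. Every mutant library lay below every control library for Hk2, yet the log2 fold change was -0.25 with an interval that includes 0 (-0.57 to 0.06, limma adjusted p 0.347). Hk1, found in most tissues, had 2.48, 2.27 and 3.41 RPKM in mutants and 3.4, 4.8 and 3.45 in controls, a log2 fold change of -0.45 ± 0.19 (SE) and a limma adjusted p of 0.234. Hk2 made up 73.3% ± 4.87 of the summed Hk1 and Hk2 level in mutants and 69.9% ± 1.76 in controls (SD, n = 3 each). The isomerase gene Gpi1 had 11.1, 10.1 and 14.3 RPKM in mutants and 13.8, 15.6 and 10.9 in controls, which overlap.

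Phosphofructokinase commits sugar to glycolysis, and its 3 genes encode subunits known as the liver, muscle and platelet forms. The liver form Pfkl had 8.33, 6.40 and 11.7 RPKM in mutants and 10.4, 17.2 and 7.16 in controls. The muscle form Pfkm had 8.12, 6.55 and 8.32 RPKM in mutants and 9.03, 13.5 and 7.24 in controls. Both overlapped between groups, with control 2 the highest library. The platelet form Pfkp had 1.70, 1.71 and 2.18 RPKM in mutants and 1.16, 1.38 and 1.21 in controls, with no overlap, a log2 fold change of 0.43 ± 0.18 (SE) and a limma adjusted p of 0.230. As a share of the 3 forms together Pfkp held 10.3% ± 1.21 in mutants and 5.90% ± 1.75 in controls (SD, n = 3 each). Within each library the ratio of Pfkl to Pfkp was 4.90, 3.75 and 5.36 in mutants and 9.01, 12.4 and 5.90 in controls, and the ratio of Pfkm to Pfkp was 4.78, 3.84 and 3.82 in mutants and 7.80, 9.78 and 5.97 in controls. The mutant ratios lay below the control ratios in both cases. The exact two-sided permutation p was 0.10 for each, the smallest that 3 libraries against 3 allow, and 0.225 when adjusted over the 9 ratios computed.

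The PFKFB enzymes make and break fructose 2,6-bisphosphate, the activator of phosphofructokinase, and TIGAR breaks it down. Pfkfb2 was the highest, at 4.65, 4.26 and 5.51 RPKM in mutants and 5.30, 4.43 and 5.86 in controls. Pfkfb3 was low and tight, at 2.33, 2.15 and 2.11 RPKM in mutants and 1.75, 1.85 and 1.82 in controls. Its groups did not overlap, and the log2 fold change of 0.22 had an interval of -0.14 to 0.58 that includes 0, as the test shares its estimate of spread between genes. Tigar, at 1.24, 0.453 and 0.912 RPKM in mutants and 0.864, 1.05 and 1.47 in controls, and Pfkfb1, at 0.941 to 2.17 RPKM in mutants and 1.14 to 1.87 in controls, overlapped between groups.

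From aldolase to phosphoglycerate mutase, Gapdh was the only gene whose groups did not overlap. Aldoa, the main aldolase, had 37.5, 37.0 and 52.9 RPKM in mutants and 50.5, 65.0 and 41.1 in controls. Tpi1, which interconverts the triose phosphates, had 40.8, 41.2 and 48.7 RPKM in mutants and 54.2, 62.3 and 35.6 in controls. In both genes the ranges overlapped, and the control libraries spread more widely than the mutant ones. Pgk1, which makes the first ATP of the pathway, had 33.8, 25.4 and 28.1 RPKM in mutants and 32.4, 39.0 and 22.4 in controls, and the mutase gene Pgam1 had 34.2, 28.2 and 29.5 in mutants and 34.7, 41.8 and 30.9 in controls. The log2 fold changes of these 4 genes lay between -0.29 and -0.08, and each interval included 0. Pgk1 shared 68.3% of its 31-base words with one copy and Pgam1 42.1%, so their levels depend on how reads that match copies were counted, which is not given in the sources used here.

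Gapdh, the glyceraldehyde-3-phosphate dehydrogenase gene (Entrez Gene 14433, chromosome 6, 125161852 to 125166467, mm10), was listed at 2.52, 1.81 and 3.56 RPKM in mutants and 4.93, 3.91 and 4.62 in controls. The groups did not overlap. The log2 fold change was -0.70 ± 0.21 (SE) and the limma adjusted p 0.101, with adjusted p between 0.0432 and 0.340 over 18 alternatives, of which only the fit without mutant 3 passed. These levels rest on 62 to 179 reads a library. At least 1 of the 31-base words of Gapdh was found in each of 329 other genes, and Gm7336 alone held 61.4% of them. How reads that match copies were counted is not given, so the level of Gapdh and its difference between groups are uncertain. Entries holding at least 5% of the words of Gapdh were looked up in the table, and of the 5 that could be tested 3000002C10Rik (15.7% of the words, chromosome 9, 109830153 to 109831431) passed the test and the other 4 did not. It had 3.05, 2.67 and 3.40 RPKM in mutants and 0.477, 0.822 and 0.556 in controls, a log2 fold change of 1.67 ± 0.19 (SE) and a limma adjusted p of 0.000722, and it passed in 18 of 18 alternatives. The lowest mutant library of 3000002C10Rik stood above the highest control library, opposite in direction to Gapdh. Whether reads of either gene were counted to the other was not tested.

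Enolase makes phosphoenolpyruvate, and 2 of its 3 genes, Eno1 and Eno3, were listed at similar levels when the entry Eno1b is set aside. Eno3, best known as the muscle enolase (Entrez Gene 13808, chromosome 11, 70653125 to 70662513, mm10), had 16.6, 12.1 and 17.0 RPKM in mutants and 22.7, 26.8 and 18.9 in controls. The highest mutant library lay below the lowest control library, and none of its 31-base words was found in another gene. Its log2 fold change was -0.57 ± 0.17 (SE) with an interval of -0.94 to -0.20. The limma adjusted p was 0.104, and between 0.0187 and 0.363 over 18 alternatives, of which only the fit without control 3 passed. Eno1, the widespread form, had 16.2, 13.8 and 16.2 RPKM in mutants and 19.7, 21.5 and 12.1 in controls, which overlap, and shared 52.3% of its words with Eno1b, an entry listed at 22.7 to 31.8 RPKM in mutants and 24.1 to 38.2 in controls. As a share of the 3 enolases Eno3 held 48.5% ± 2.51 in mutants and 55.8% ± 3.66 in controls (SD, n = 3 each). Eno2, the neuronal form, made up 1.95% ± 0.623 in mutants and 1.47% ± 0.308 in controls. These shares leave out Eno1b, which was listed above both Eno1 and Eno3 in every library. How reads that match both Eno1 and Eno1b were counted is not given, so the shares of the enolases are uncertain.

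Pyruvate kinase and lactate dehydrogenase end the cytosolic pathway. Pkm had 45.9, 39.5 and 53.5 RPKM in mutants and 53.5, 65.3 and 37.5 in controls. Ldha, which favours the making of lactate, had 160, 153 and 173 RPKM in mutants and 165, 205 and 135 in controls. All mutant values of Ldha fell inside the control range, and the log2 fold change was -0.04 with an interval of -0.39 to 0.32. Ldhb had 6.28, 4.91 and 7.08 RPKM in mutants and 5.84, 4.31 and 6.42 in controls. Ldha held 96.4% ± 0.438 of the sum of both in mutants and 96.7% ± 1.25 in controls (SD, n = 3 each), so the A form was the main one in either genotype. The interval of the fold change of Ldha stays within 1.5-fold in either direction.

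Slc16a1, which encodes the lactate and pyruvate transporter MCT1 (Entrez Gene 20501, chromosome 3, 104638664 to 104658462, mm10), had the lowest p of the 36 genes. It had 36.5, 29.8 and 30.6 RPKM in mutants and 21.3, 24.7 and 16.7 in controls, or 32.3 ± 3.64 RPKM in mutants and 20.9 ± 4.06 in controls (SD, n = 3 each). Every mutant library lay above every control library. The log2 fold change was 0.63 ± 0.16 (SE) with an interval of 0.28 to 0.97, and the limma adjusted p was 0.0577, just over the threshold. The direction was the same in 18 of 18 alternatives, with log2 fold changes of 0.48 to 0.77 and adjusted p between 0.0107 and 0.195, and 7 of the alternatives passed. Reads summed to 12288 in mutants and 8814 in controls, a ratio per depth of 1.53 with an exact 95% interval of 1.48 to 1.57 that covers counting error only. No 31-base word of Slc16a1 was found in another gene.

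The second lactate exporter, Slc16a3 (MCT4), had 1.46, 1.28 and 1.88 RPKM in mutants and 1.69, 1.83 and 1.5 in controls, which overlap. The ratio of Slc16a1 to Slc16a3 within a library was 24.9, 23.2 and 16.2 in mutants and 12.7, 13.5 and 11.1 in controls. The groups did not overlap, with an exact two-sided permutation p of 0.10, the smallest possible, and 0.225 adjusted over the 9 ratios.

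**Figure D2:**
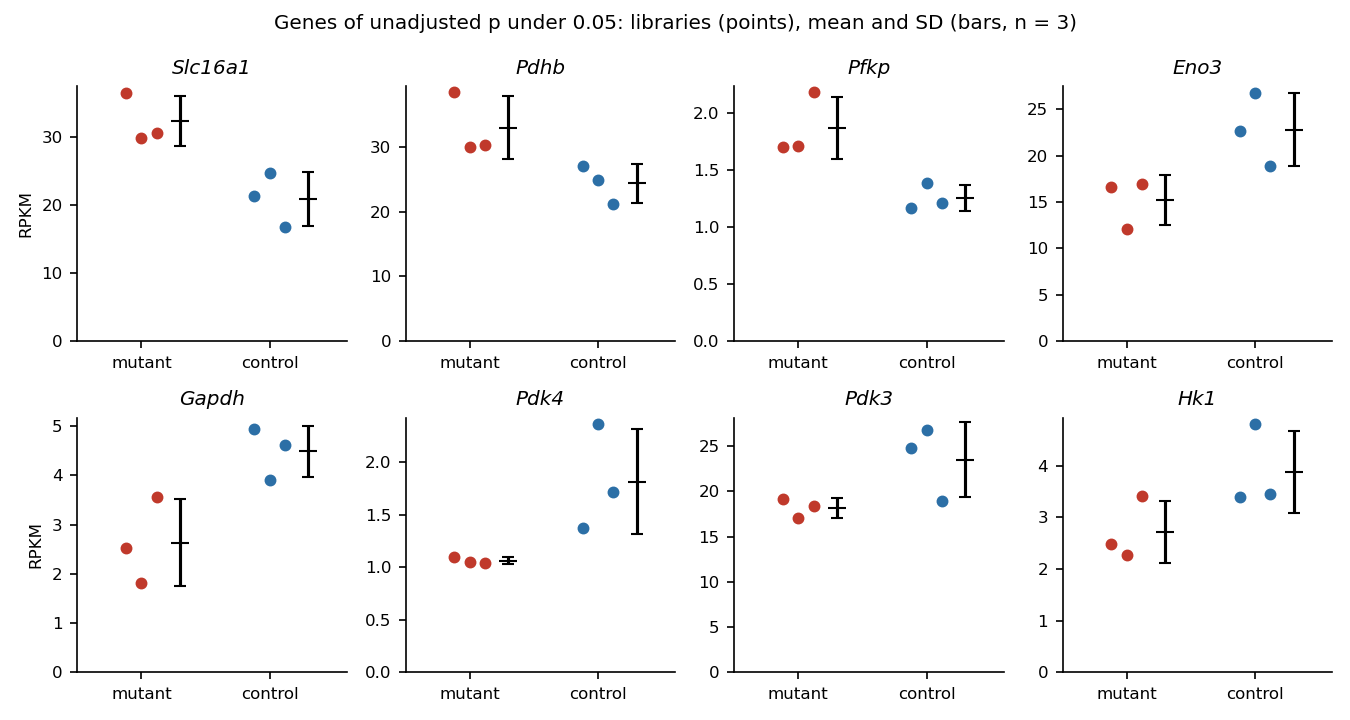
RPKM (linear axes from 0) of the 8 genes with an unadjusted p under 0.05, with 1 point per library, mutants left and controls right, and the mean and SD of 3 libraries as a bar beside the points. Slc16a1, Pdhb and Pfkp lie higher in mutants, and Eno3, Gapdh, Pdk4, Pdk3 and Hk1 lower, and the 2 groups of points overlap for Pdk3 and Hk1.

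Pyruvate crosses the inner mitochondrial membrane through a carrier of MPC1 and MPC2. Mpc2 had 12.2, 10.5 and 10.9 RPKM in mutants and 13.5, 13.3 and 9.83 in controls. Mpc1 had 3.46, 3.29 and 2.4 RPKM in mutants and 4.15, 2.41 and 2.86 in controls. Both overlapped between groups. Mpc1-ps, an entry that shares 16.8% of the words of Mpc1, was listed at 15.6 to 20.6 RPKM in mutants and 15.8 to 25.6 in controls, above Mpc1 itself.

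Of the pyruvate dehydrogenase complex, Pdhb had higher values in mutants, and the other subunits measured had log2 fold changes below 0. Pdhb, its E1 beta subunit (Entrez Gene 68263, chromosome 14, 8165991 to 8173303, mm10), had 38.6, 30.1 and 30.4 RPKM in mutants and 27.1, 24.9 and 21.2 in controls. Every mutant library was above every control library, with a log2 fold change of 0.43 ± 0.15 (SE) and a limma adjusted p of 0.150, and of 18 alternatives only quantile normalization passed (0.0370; over all alternatives 0.0370 to 0.338). Pdhb lies on the chromosome of the deleted cluster, but far from it, as the cluster stands between 115043684 and 115044496. Of the words of Pdhb, 41.9% are found in the copy Gm6123, which was not analysed here. Pdha1, the E1 alpha subunit that pairs with it, had 18.8, 15.8 and 16.8 RPKM in mutants and 22.7, 23.9 and 15.3 in controls, with a log2 fold change of -0.24. Dlat, the E2 subunit, had 27.1, 26.1 and 23.5 RPKM in mutants and 28.6, 33.5 and 24.9 in controls, with a log2 fold change of -0.17. For both subunits the groups overlapped and the interval included 0. Outside the 38 genes, Pdhx, which holds the E3 subunit in the complex, had 8.10, 8.14 and 8.15 RPKM in mutants and 13.8, 13.9 and 9.49 in controls, with no overlap, a log2 fold change of -0.56 and a limma adjusted p of 0.0973. Without control 3 its adjusted p was 0.00828, and in no other of the 18 alternatives did it pass. Dld, the E3 subunit, had 115, 104 and 95.3 RPKM in mutants and 123, 134 and 103 in controls, which overlap, with a log2 fold change of -0.19.

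Of the 4 kinases that switch the complex off, Pdk3 was the highest in level. Pdk3 (Entrez Gene 236900, chromosome X, 93764616 to 93832150, mm10) had 19.1, 17.0 and 18.4 RPKM in mutants and 24.8, 26.8 and 18.9 in controls. Mutant 1 lay just above control 3, so the groups overlapped, and the log2 fold change was -0.35 ± 0.15 (SE) with a limma adjusted p of 0.234. Without control 3 the adjusted p was 0.0387, the only one of 18 alternatives to pass, against 0.532 at most. Pdk4, known for its induction by fasting, had 1.10, 1.05 and 1.04 RPKM in mutants and 1.37, 2.36 and 1.72 in controls, with no overlap, a log2 fold change of -0.54 ± 0.20 (SE) and a limma adjusted p of 0.180. Pdk1, a HIF-1 target in many cells, had 12.3, 10.2 and 10.9 RPKM in mutants and 10.6, 13.8 and 9.91 in controls, with a log2 fold change of -0.03 and an interval of -0.37 to 0.31. Pdk2 had 3.48, 3.15 and 5.03 RPKM in mutants and 5.23, 4.45 and 5.15 in controls, which overlap. As a share of the 4 kinases Pdk1 held 32.4% ± 1.69 in mutants and 27.4% ± 1.88 in controls (SD, n = 3 each). The ratio of Pdk1 to Pdk3 was 0.642, 0.600 and 0.590 in mutants and 0.430, 0.514 and 0.524 in controls, with no overlap and an exact two-sided permutation p of 0.10, the smallest possible, or 0.225 adjusted over the 9 ratios.

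**Figure D3:**
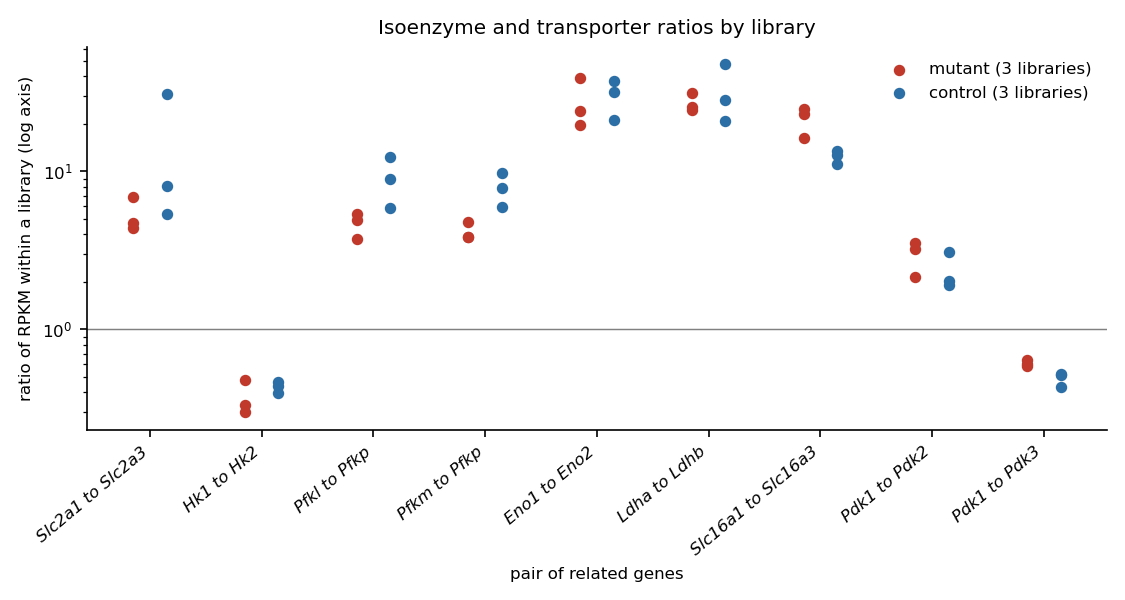
Ratio of RPKM between related genes within each library, on a log axis, for 9 pairs, with mutants (3 libraries) left and controls (3 libraries) right. The line marks a ratio of 1. The groups stand apart for Pfkl to Pfkp and Pfkm to Pfkp, lower in mutants, and for Slc16a1 to Slc16a3 and Pdk1 to Pdk3, higher in mutants, and overlap for the other 5 pairs.

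The remaining 5 ratios overlapped between groups. The log2 difference in the ratio of Slc2a1 to Slc2a3 was -1.08 (exact permutation p 0.20), with control 3 at a ratio of 31. It was -0.33 without control 3, and between -1.60 and -0.96 without any 1 of the other libraries. It was -0.25 for Hk1 to Hk2 (exact permutation p 0.40), -0.15 for Eno1 to Eno2 (0.80), -0.18 for Ldha to Ldhb (0.80) and 0.35 for Pdk1 to Pdk2 (0.20). Aldoa to Aldoc was not computed because Aldoc was below the level for testing.

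Hif1a encodes the oxygen-sensitive subunit of HIF-1, whose amount is set largely at the protein level. It had 51.1, 41.6 and 40.4 RPKM in mutants and 45.0, 47.7 and 45.6 in controls. The mutant libraries lay on both sides of the controls, and the log2 fold change was -0.06 with an interval of -0.35 to 0.22. Bnip3, a HIF-1 target that marks mitochondria for removal, had 15.4, 14.7 and 16.6 RPKM in mutants and 17.5, 22.9 and 14.2 in controls, which overlap, and shared 57.9% of its words with one copy.

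**Figure D4:**
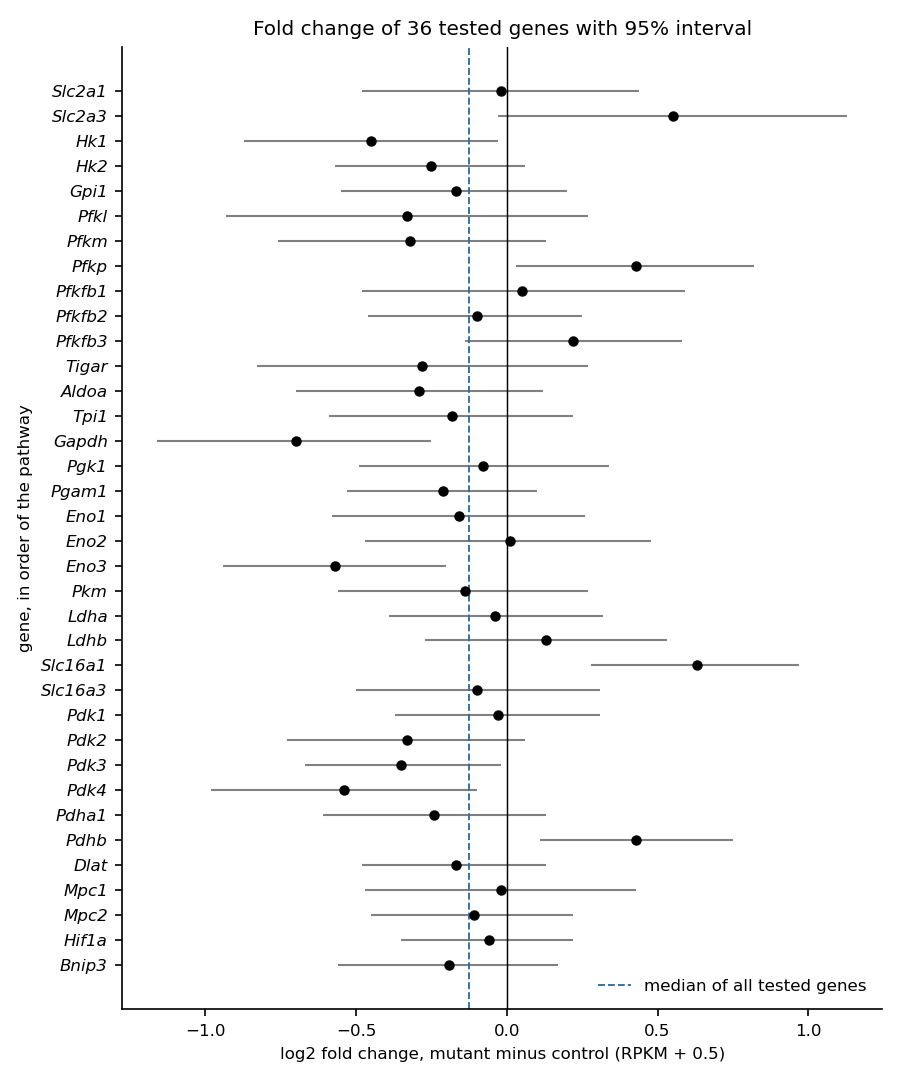
Log2 fold change (mutant minus control, on the RPKM + 0.5 scale) of the 36 tested genes with its 95% interval, in the order of the pathway. The solid line marks 0 and the dashed line the median of all tested genes, -0.125. The interval reaches across 0 for 28 genes, lies above 0 for 3 and below 0 for 5.

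Part of the spread was shared by the genes within a library. Control 2 was the highest library for 19 of the 36 genes, or 52.8%, and for 33.5% of all tested genes. Control 3 was the lowest for 12 of the 36, or 33.3%, and for 17.2% of all tested genes, and mutant 2 was the lowest for 14, or 38.9%, and for 39.5% of all. The median deviation of the 36 genes from their mean on the log2 scale was -0.05, -0.21 and 0.07 in mutants 1, 2 and 3 and 0.08, 0.29 and -0.12 in controls 1, 2 and 3. The same median over all genes was -0.03, -0.16 and 0.03 in mutants and 0.07, 0.10 and 0.01 in controls. The 38 genes summed to 690, 611 and 707 RPKM in mutants and to 730, 857 and 589 in controls, so the controls enclosed the mutants. The labels name no batch of libraries.

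The scaling of libraries bore on the direction of small values. With depth counted without mitochondrial ribosomal RNA the median log2 fold change was -0.0165 over all genes and -0.03 over the 36, 16 of the 36 were positive, and calls over all genes split into 266 higher and 153 lower. With median-of-ratios scaling the median over all genes was -0.012, and calls split into 282 higher and 156 lower. With it too, 16 of the 36 were positive, against 8 in the values above. The log2 fold changes of Hif1a, Ldha, Pdk1 and Slc2a1 were among those that turned positive under both, at 0.09 at most. Slc16a1 passed under both, at adjusted p of 0.0219 without mitochondrial ribosomal RNA and 0.0214 with median-of-ratios scaling (limma).

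**Figure D5:**
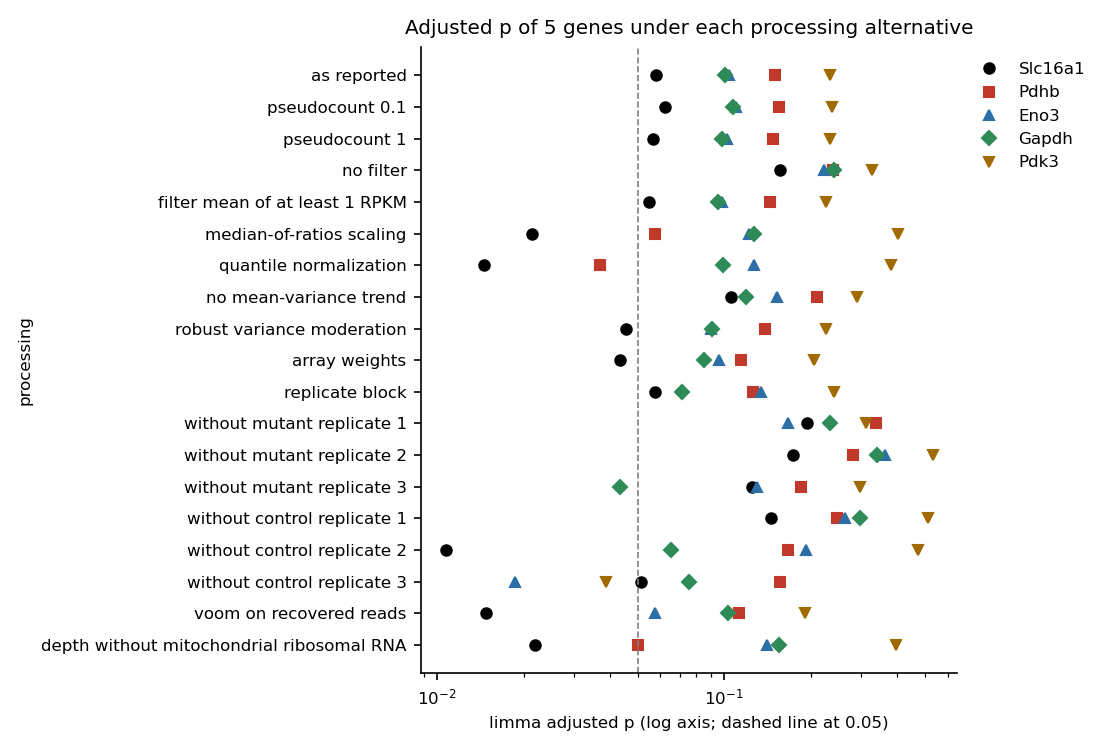
Limma adjusted p (log axis) of the 5 genes that passed the test under at least 1 alternative, for the values as reported and 18 alternatives. The dashed line marks 0.05. Slc16a1 lies left of the line in 7 alternatives, and Pdhb, Eno3, Gapdh and Pdk3 in 1 each.

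Sites for the seeds of the deleted cluster were then searched for in 3' UTRs, using the longest that the annotation gives per gene, as matches of 7 letters on the transcript strand, written as DNA. At least 1 site was found in 11 of the 36 tested genes, or 30.6%, and in 4206 of 11576 tested genes with a 3' UTR, or 36.3%. The median 3' UTR was 1066 bases long in the 36 genes and 1411 in all, and a longer one has more places for a match. The shares were not adjusted for length. The site of miR-17 and miR-20a, GCACTTT, was in 4 of the 36 genes and in 15.5% of all. That of miR-18a, GCACCTT, was in 5 of the 36 and in 10.4% of all, that of miR-19, TTTGCAC, in 4 and in 14.5%, and that of miR-92a, GTGCAAT, in 2 and in 8.30%. Slc16a1, with a 3' UTR of 2740 bases, and Pdhb, with 340 bases, held no site, which says only that these letters are not in those windows. Windows of 30 bases around sites are shown for Pfkp and Pdk4, the genes with a site and an unadjusted p under 0.05, and for Hif1a, which held 2 sites, with the site in capitals. Counted from the first base of the 3' UTR, the match began at base 81 of 1692 in Pfkp (chromosome 13), at bases 503 and 603 of 2098 in Pdk4 (chromosome 6), and at bases 975 and 304 of 1827 in Hif1a (chromosome 12).
Pfkp, miR-17/20a site: gttatttatcaGCACTTTatggaagcaagc
Pdk4, miR-17/20a site: aaggaatcaaaGCACTTTatcgagcttgtg
Pdk4, miR-19 site: agctttttatgTTTGCACtcaaaaagccag
Hif1a, miR-17/20a site: tttggttttatGCACTTTgtcgctattaac
Hif1a, miR-18a site: tcatttaaaatGCACCTTtttatttattta

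The log2 fold changes of the genes with a site were of both signs. Pfkp, with its miR-17/20a site, had a log2 fold change of 0.43, and Pfkfb3, where the miR-17/20a and miR-19 matches overlap, had 0.22. Pdk4, with a site for each of the same seeds, had -0.54, and Hif1a had -0.06. The other genes with a site were Slc16a3, Pdk1, Pdha1 and Bnip3 for miR-18a, Ldhb and Bnip3 for miR-19, and Pfkfb2 and Pgam1 for miR-92a, with log2 fold changes between -0.24 and 0.13. None of the 11 passed the test, which found 9.50% of 1.5-fold changes in the simulation. Whether a site bore on the fold change of its gene was not tested.

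Among 37 other genes of glucose, lactate and pyruvate use, 24 could be tested, and 1 was higher and 2 were lower in mutants. Of all tested genes 1.32% were higher and 1.81% lower. The median log2 fold change of the 24 was -0.20, beside -0.125 over all genes. Adpgk, an ADP-dependent glucokinase (Entrez Gene 72141, chromosome 9, 59291572 to 59316200, mm10), fell to 5.43, 4.43 and 4.35 RPKM in mutants, against 9.76, 10.9 and 9.95 in controls. The groups lay far apart, with a log2 fold change of -1.04 ± 0.15 (SE), a limma adjusted p of 0.00264 and a call in 18 of 18 alternatives. Gapdhs, known as the sperm form of glyceraldehyde-3-phosphate dehydrogenase, had 0.953, 1.61 and 1.54 RPKM in mutants and 3.25, 2.25 and 3.75 in controls, a log2 fold change of -0.94 ± 0.22 (SE) and a limma adjusted p of 0.0425. It passed in 10 of 18 alternatives, and the call was lost without any 1 of the mutant libraries (adjusted p 0.0762 to 0.163), without control 1 (0.140), with no filter (0.172), with median-of-ratios scaling (0.0898), with quantile normalization (0.0618) and without mitochondrial ribosomal RNA (0.0919).

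The neighbouring pathways held no gene past the test. In the pentose phosphate pathway all 8 genes were tested, and the lowest p were those of Pgd, at 14.2 ± 2.27 RPKM in mutants and 21.0 ± 4.63 in controls (SD, n = 3 each; log2 fold change -0.54, limma adjusted p 0.131), and of H6pd (log2 fold change 0.31, limma adjusted p 0.401). The list for the tricarboxylic acid cycle also holds Acly, Aco1, Idh1 and Mdh1, whose enzymes act in the cytosol. In it 20 of 21 genes were tested, the median log2 fold change was -0.26 and none was positive, beside the median of -0.125 over all genes. The lowest p there were those of Acly, which splits citrate to give acetyl-CoA for lipid synthesis (log2 fold change -0.41, limma adjusted p 0.144), and of Ogdh, a subunit of the 2-oxoglutarate dehydrogenase complex (log2 fold change -0.34, limma adjusted p 0.183).

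Regulators and targets of HIF held no gene past the test. All 9 regulators were tested, with a median log2 fold change of -0.19. Of 18 other HIF target genes 17 were tested, with a median of -0.11. The median over all genes was -0.125. Hif1an, the asparagine hydroxylase that inhibits HIF, had the lowest p among regulators, at 4.35 ± 0.348 RPKM in mutants and 5.96 ± 0.907 in controls (SD, n = 3 each; log2 fold change -0.40, limma adjusted p 0.199). Egln3, a prolyl hydroxylase that is both a regulator and a target, had 0.803, 0.820 and 0.569 RPKM in mutants and 0.456, 0.331 and 0.253 in controls, with a log2 fold change of 0.54 and a limma adjusted p of 0.207. Its groups did not overlap. Mxi1, the other target of lowest p, had a log2 fold change of -0.34 and a limma adjusted p of 0.229.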

How the data were processed

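Per the labels' protocols, libraries were made with the Ovation RNA-Seq System V2 kit from RNA of integrity number above 9, and read as pairs of 100 bases over 2 lanes, at about 70 M reads each. The submitters' processing notes give the build mm10 and the tools FastQC and limma, and subread stands in the column names, per the file headers. How reads were counted, with which annotation and strand setting, is not given in the sources used here, and overlapping or antisense genes may share reads. The authors deposited 1 table of RPKM values, normalized by gene length and library depth.

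Symbols were matched for 25275 of 27179 entries, and positions are those of an annotation of the same build. The RPKM of low genes falls on whole reads, so depth, counted length and reads were worked out from the table, within 0.01 of a read. Reads were recovered for all 13463 tested genes, and on simulated data they were right for 99.2% of 2000 genes. A read on 1 kb was worth 0.0277 to 0.0362 RPKM. These units may be read pairs. Intervals on reads cover counting error only.

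Genotypes were compared by limma (version 3.58.1, R 4.3.3), fitted to log2(RPKM + 0.5), a scale that understates the change of low genes, wherever the mean reached 0.5 RPKM, with 1 term for genotype and a mean-variance trend, two-sided. Ratios within a library were compared by exact permutation with scipy 1.17.1, and shared sequence and seed sites were counted with Python 3.11.15. Shared sequence is how many of the 31-base words in a gene's transcripts also occur in those of another, in percent. Alternatives were the pseudocount, filter, scaling, variance model, weights, replicate block and leaving out each library; voom on recovered reads and depth without mitochondrial ribosomal RNA were added after the data were seen.

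The 38 genes and the other lists were chosen with earlier results of these data known. Values in each library are given for those of the 38 genes that passed the test in any setting, for the highest gene of each step, and for Hif1a, Pdk1 and Slc2a1. Further members are given because their unadjusted p was under 0.05 or to set forms of an enzyme side by side, chosen after their values were seen. In each related list the genes past the test as reported are named, or else up to 2 of lowest p, besides Pdhx and Dld, which were added after their values were seen, and entries that share sequence with a member are named at 0.5 RPKM or more where they bear on it. 1 gene past the test in a related list is not reported here.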

Additional observations from a re-analysis of the deposited data

How the results depend on the processing

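Of the 38 genes, 33 passed the test in no setting and 5 in at least 1 of 18 alternatives. Among the 36 tested, 0 were called higher, and 1 was with median-of-ratios scaling, robust variance moderation, array weights, voom on recovered reads or depth without mitochondrial ribosomal RNA (Slc16a1 each time), and 2 with quantile normalization (Slc16a1 and Pdhb). Leaving out 1 library gave 0 to 1 higher and 0 to 2 lower; the causes were not tested. Over all genes the 422 calls became 143 with no filter, where 23229 genes were tested, 686 with voom, and 148 to 1083 when 1 library was left out, the most without control 3. Calls in the related lists, 3 as reported, were 1 with no filter and 1 to 11 with a library left out. Of the 36 log2 fold changes 8 were positive, and 16 with median-of-ratios scaling, 15 with quantile normalization and 16 without mitochondrial ribosomal RNA. Hif1a, Ldha, Pdk1 and Slc2a1 were among those that turned positive: with median-of-ratios scaling Hif1a was 0.06, Ldha 0.09, Pdk1 0.09 and Slc2a1 0.09, with quantile normalization Hif1a was 0.12, Ldha 0.17, Pdk1 0.10 and Slc2a1 0.09, and without mitochondrial ribosomal RNA Hif1a was 0.06, Ldha 0.09, Pdk1 0.09 and Slc2a1 0.09. Leaving out 1 library gave -0.17 to 0.00 for Hif1a, -0.18 to 0.12 for Ldha, -0.12 to 0.11 for Pdk1 and -0.26 to 0.14 for Slc2a1, and log2 differences of -0.43 to 0.07 for the ratio of Eno1 to Eno2 and -0.45 to 0.14 for Ldha to Ldhb. Libraries of the same replicate number deviated together with correlations of 0.053, 0.157 and 0.153, so the numbers were not taken as pairs; with the replicate block 393 genes were called, none of them among the 36, and Slc16a1 had an adjusted p of 0.0574 (limma). The tested members had 24 to 14313 reads a library.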
